A study of Homo sapiens with 14 samples.

Results

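Hep3B, an established human liver cancer line, was grown on porous transwell membranes in ordinary medium or in medium holding 3% polyethylene glycol 300 (PEG), and RNA sequencing libraries of both states were compared gene by gene. The comparison takes 4 of the 14 libraries of the series, 2 in 3% PEG and 2 uncompressed. It covers the 14146 genes, of 56479 entries in the count table, that reached 1 CPM, the usual read count scaled to library depth, in at least 2 of these 4 libraries. Both groups carry the label of wild-type genotype and of hepatocellular carcinoma, both sat on the same kind of membrane, and neither carried a load. The time on the membrane is not given in the sources used here. Other groups are used where stated. They are 2 Hep3B libraries from membranes loaded with a weight whose size is not given in the sources used here, and 4 libraries of HepG2, a line labelled hepatoblastoma and wild type, grown on dishes, 2 in isotonic medium and 2 after 5 days in 4% PEG. The fits and scalings over all 14 libraries also hold HepG2 on transwell membranes, 2 libraries uncompressed and 2 under a weight. Hep3B is 1 tumour line, and the labels do not say whether its libraries of a group came from separate cultures. The p-values below therefore measure the spread between these libraries, which may be technical.

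Polyethylene glycol 300 is a small, water-soluble polymer that raises the osmolarity of the medium, so water leaves the cells and their volume falls. Cells are known to answer such stress by importing ions and organic osmolytes, partly through the transcription factor NFAT5, and by signalling through stress kinases. Hepatocytes also carry several general stress programmes: ATF4 induces genes of amino acid synthesis and uptake when the translation factor eIF2 is phosphorylated, NRF2 induces genes of glutathione and detoxification, SREBP factors set the enzymes of cholesterol synthesis, and NF-kB drives chemokines.

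The libraries held 21161950 and 23740578 counts in 3% PEG and 25347634 and 25823821 uncompressed. The share of counts in mitochondrially encoded genes was 3.60% and 1.83% in 3% PEG and 2.70% and 2.00% uncompressed, so it differed within each group, and it was the higher in replicate 1 of both. Hepatocyte and liver tumour markers, 9 genes from ALB to TF, summed to 33810 and 33890 CPM in 3% PEG and 49890 and 52620 CPM uncompressed. Of these 9 genes 3 rose and 5 fell. Cholangiocyte markers summed to 812 and 775 CPM in 3% PEG and 1040 and 1036 CPM uncompressed. Of their 4 tested members, KRT19, SOX9, SPP1 and EPCAM, 1 rose and 2 fell. Fibroblast and stellate markers summed to 30.4 and 32.5 CPM in 3% PEG and 14.5 and 17.5 CPM uncompressed, with ACTA2 at 0, and both tested members, PDGFRB and LUM, rose. Their part in the results was not tested. The 6 endothelial markers summed to 0.798 and 0.575 CPM in 3% PEG and 0.760 and 0.757 CPM uncompressed. The 7 leukocyte and Kupffer markers summed to 3.47 and 3.29 CPM in 3% PEG and 3.84 and 3.71 CPM uncompressed. Of their 2 tested members, CD68 and CD14, 1 rose and 1 fell. The endothelial markers CDH5, KDR, TEK and CLEC4G and the leukocyte markers CD3E, MARCO and CD163 had no count in any of the 4 libraries. RB1, whose function Hep3B is known to have lost, stood at 2.60 to 4.92 CPM in the 4 libraries and at 102 to 151 CPM in the 8 HepG2 libraries, all scaled over the 14 libraries. In bulk RNA a change in the number of cells of a kind and a change in RNA per cell cannot be told apart.

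Most of the transcriptome moved. By edgeR's quasi-likelihood test with a Benjamini-Hochberg adjusted p under 0.05, 4685 genes (33.1% of those tested) were higher in 3% PEG and 4685 (33.1%) were lower. These shares are the background for the counts of list members below. Most changes were small, with a median size of 0.55 on the log2 scale among called genes. A change of at least 1 on the log2 scale was called upward for 945 genes (6.68%) and downward for 1064 (7.52%), and a change of at least 2 for 233 and 240 genes. The 2 groups did not overlap for 9363 of the 9370 called genes and for 81.7% of all genes tested. Genes that reach 1 CPM in both libraries of 1 group and in neither of the other pass the filter through that group alone and had to differ. There were 399 of them through 3% PEG and 330 through uncompressed, among them IGFBP1, NIBAN1, UNC5B, DRAIC, RUNX1, KLF4 and CBLN2, described below. In a principal component analysis the first component, 92.6% of the variance, separated 3% PEG from uncompressed, and the second, 4.17%, separated the replicate numbers. Values are CPM per library after scaling by the trimmed mean of M values (TMM), and differences are log2 fold changes of 3% PEG minus uncompressed ± the standard error of the fit.

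**Figure D1:**
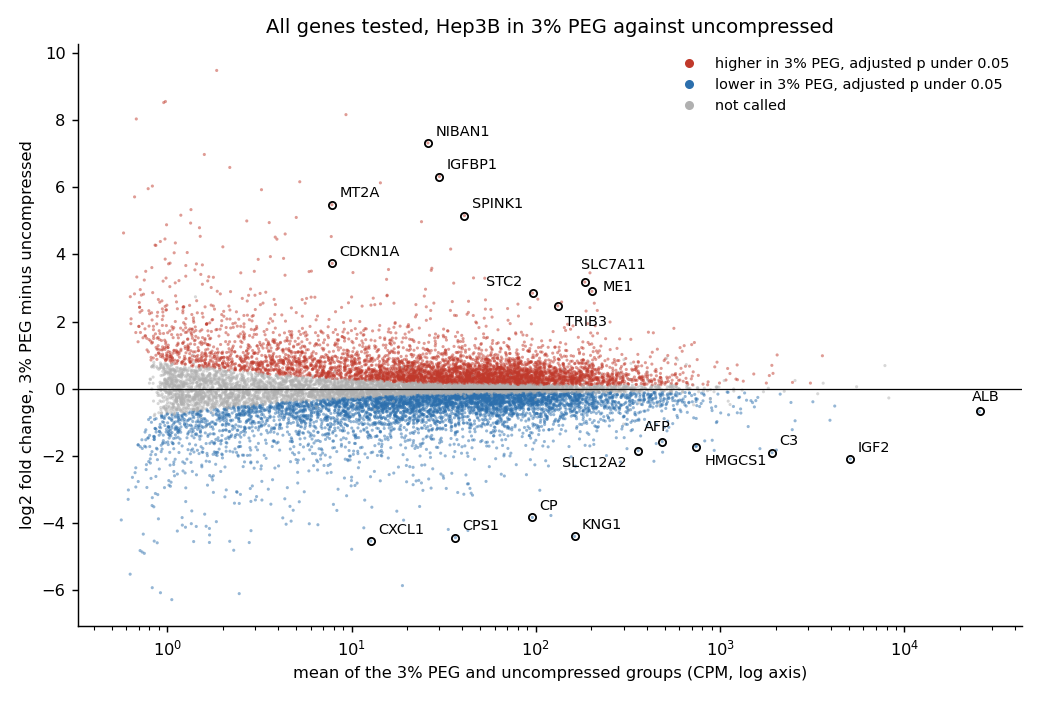
Each point is 1 of the 14146 tested genes, with the mean CPM of both groups on a log axis and the log2 fold change of 3% PEG minus uncompressed, coloured by the edgeR call. The 4685 higher and 4685 lower genes lie on both sides of 0 at all levels, and labelled genes such as IGFBP1 (6.32) and KNG1 (-4.39) lie among the larger changes in either direction.

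Genes of the amino acid stress response that ATF4 governs rose almost without exception. Of 29 tested members 28 rose, 22 of them by at least 1, and 1 fell, with a median of 1.98 against -0.01 over all genes. Of the members that rose 2, FGF21 among them, passed the filter on low values through 3% PEG alone, and of the other 27 members 26 rose. All 9 tested factors and regulators of the list rose. TRIB3, a pseudokinase that restrains ATF4 signalling, stood at 214 and 232 CPM in 3% PEG against 41.8 and 38.9 CPM uncompressed, a rise of 2.47 ± 0.06. DDIT3, the factor CHOP of prolonged stress, stood at 62.0 and 56.7 CPM in 3% PEG against 12.8 and 13.3 CPM uncompressed and rose by 2.19 ± 0.08. For both genes the 3% PEG libraries lay close together and far above the uncompressed ones. ATF4 mRNA itself stood at 525 and 540.1 CPM in 3% PEG against 324 and 316 CPM uncompressed and rose by 0.73 ± 0.05, without overlap of the groups. Its protein is controlled mainly at translation, which these libraries do not measure.

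Transporters and enzymes of amino acids followed. SLC7A11, the cystine importer, stood at 332 and 332 CPM in 3% PEG against 34.4 and 39.1 CPM uncompressed. It rose by 3.17 ± 0.06 (adjusted p = 7.33e-27, edgeR), and both 3% PEG libraries were alike. Its partner chain SLC3A2 stood at 299.8 and 324 CPM in 3% PEG against 62.4 and 63.3 CPM uncompressed and rose by 2.31 ± 0.05. CHAC1, which degrades glutathione, stood at 70.8 and 77.3 CPM in 3% PEG against 12.1 and 12.3 CPM uncompressed and rose by 2.60 ± 0.08. STC2, a secreted glycoprotein, stood at 164 and 173 CPM in 3% PEG against 22.8 and 24.1 CPM uncompressed and rose by 2.85 ± 0.06. In all 4 genes the libraries of 1 group lay close together and far from the other group. ASNS, asparagine synthetase, stood at 14.9 and 14.8 CPM in 3% PEG against 3.2 and 2.35 CPM uncompressed and rose by 2.42 ± 0.15. PCK2, the mitochondrial enzyme that links amino acids to sugar synthesis, stood at 127 and 136 CPM in 3% PEG against 30.5 and 28.2 CPM uncompressed and rose by 2.16 ± 0.06. The serine and one-carbon enzymes moved together: PHGDH rose by 1.14 ± 0.05, PSAT1 by 1.28 ± 0.05, SHMT2 by 1.13 ± 0.05 and MTHFD2 by 1.48 ± 0.05. The exception was ALDH18A1, an enzyme of proline synthesis, which stood at 101 and 99.3 CPM in 3% PEG against 157 and 153 CPM uncompressed and fell by 0.64 ± 0.05.

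The cytosolic aminoacyl-tRNA synthetases, which load amino acids onto tRNA, rose in 14 of 18 cases, 6 by at least 1, and fell in 2, with a median of 0.60. WARS1, for tryptophan, stood at 239 and 239 CPM in 3% PEG against 69.0 and 70.8 CPM uncompressed and rose by 1.77 ± 0.05. YARS1 rose by 1.23 ± 0.05, SARS1 by 1.13 ± 0.05, GARS1 by 1.12 ± 0.05 and AARS1 by 1.09 ± 0.05. QARS1, for glutamine, was among the members that fell, by 0.48 ± 0.06.

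ATF4 binds DNA together with a CEBP factor, and the composite motif TGATGNAA was searched on both strands in the RefSeq promoter windows (250 bases before to 50 after the start site) of the genes that rose. It stood in 5 of the 22 windows at hand among the ATF4 list (ATF3, ASNS, SLC3A2, CHAC1 and FGF21) and in 6 of 12 among the synthetases (AARS1, CARS1, IARS1, MARS1, NARS1 and TARS1). Of all 10393 tested genes with a window, 1.75% held it. A match describes letters and not binding. The lists were drawn up around amino acid stress and the synthetases, so an excess of this motif may follow in part from that choice. Members that did not rise were not counted separately. The 250 bases before the start site are printed for 3 of these genes because their lists rose for the most part (28 of 29 and 14 of 18), each in the gene's own direction from RefSeq on GRCh38.p14, with the motif or its reverse complement in capitals. CHAC1 lies on the plus strand at chr15:40953221-40953470 with its match starting 209 bases before the start site, ASNS on the minus strand at chr7:97872409-97872658 with its match at 68 bases, and AARS1 on the minus strand at chr16:70289507-70289756 with its match at 187 bases.
CHAC1: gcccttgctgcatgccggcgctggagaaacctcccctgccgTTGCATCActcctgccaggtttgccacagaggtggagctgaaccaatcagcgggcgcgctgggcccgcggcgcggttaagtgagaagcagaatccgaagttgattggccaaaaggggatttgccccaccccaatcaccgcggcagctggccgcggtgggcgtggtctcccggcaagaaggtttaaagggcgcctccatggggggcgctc
ASNS: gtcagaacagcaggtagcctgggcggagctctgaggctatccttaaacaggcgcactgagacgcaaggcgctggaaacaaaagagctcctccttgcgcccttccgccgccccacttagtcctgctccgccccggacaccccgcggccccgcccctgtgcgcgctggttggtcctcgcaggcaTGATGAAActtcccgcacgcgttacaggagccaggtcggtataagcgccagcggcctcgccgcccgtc
AARS1: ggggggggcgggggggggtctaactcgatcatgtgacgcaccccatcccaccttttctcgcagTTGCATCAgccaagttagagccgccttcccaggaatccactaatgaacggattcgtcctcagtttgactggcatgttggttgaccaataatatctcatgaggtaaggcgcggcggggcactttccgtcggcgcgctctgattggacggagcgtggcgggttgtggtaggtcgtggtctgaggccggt

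Genes under NRF2 rose as well. Of 27 tested members 25 rose, 17 by at least 1, and 2 fell, with a median of 1.38. Of the members that rose 4 passed the filter through 3% PEG alone, and of the other 23 members 21 rose and 2 fell. SLC7A11 belongs to both lists. GCLC, the catalytic subunit of the enzyme that limits glutathione synthesis, stood at 358 and 361 CPM in 3% PEG against 71.1 and 71.9 CPM uncompressed and rose by 2.33 ± 0.05. Its regulatory subunit GCLM stood at 118 and 112 CPM in 3% PEG against 29.1 and 30.9 CPM uncompressed and rose by 1.94 ± 0.06. ME1, the malic enzyme that supplies NADPH, stood at 361 and 349 CPM in 3% PEG against 47.4 and 47.9 CPM uncompressed and rose by 2.90 ± 0.05. These 3 genes of glutathione and NADPH supply rose by 3.83-fold to 7.46-fold, with no overlap between groups. TXNRD1, thioredoxin reductase, stood at 631 and 614 CPM in 3% PEG against 197 and 191 CPM uncompressed and rose by 1.68 ± 0.05. UGDH, which makes the substrate for glucuronidation, stood at 884 and 860.0 CPM in 3% PEG against 254 and 247 CPM uncompressed and rose by 1.80 ± 0.05. HMOX1, heme oxygenase, stood at 39.95 and 41.9 CPM in 3% PEG against 10.2 and 9.73 CPM uncompressed and rose by 2.04 ± 0.08. The iron stores moved as well: FTH1, the heavy chain of ferritin, rose by 1.38 ± 0.05 and FTL, the light chain, by 0.98 ± 0.04. The 2 members that fell, PGD by 0.50 ± 0.05 and TALDO1 by 0.36 ± 0.06, belong to the pentose phosphate pathway. The motif TGACNNNGC of the antioxidant element, on either strand, stood in 4 of 17 windows of the genes that rose and in 15.2% of all windows.

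Metallothioneins, small proteins that bind zinc and copper, went from almost no reads to a clear signal. Only 4 of the 8 metallothionein genes listed passed the filter on low values, and these passed it through 3% PEG alone, so their direction follows in part from that filter. They are close copies of each other, so the split of reads among them is uncertain. MT2A stood at 13.6 and 17.0 CPM in 3% PEG against 0.48 and 0.199 CPM uncompressed, with 704 counts against 17. MT1X stood at 7.46 and 7.6 CPM in 3% PEG against 0.36 and 0.319 CPM uncompressed. MT1E had 198 counts in the 3% PEG libraries together against 2, and MT1G 144 against 1. All 4 had at most 0.480 CPM in either uncompressed library. SLC30A1, the zinc exporter of the cell surface, stood at 262 and 243 CPM in 3% PEG against 86.9 and 88.0 CPM uncompressed and rose by 1.53 ± 0.05, while the importer SLC39A10 fell by 0.67 ± 0.05.

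Protein folding genes split by compartment. In the cytosol 14 of 19 heat shock chaperones rose and 2 fell, mostly by little, with 3 rises of at least 1 and a median of 0.27. Without replicate 2 of the uncompressed group 9 rose, and the median was 0.17. DNAJB4, a co-chaperone of HSP70, stood at 79.0 and 75.9 CPM in 3% PEG against 26.6 and 27.1 CPM uncompressed and rose by 1.53 ± 0.07. HSPA4L rose by 1.02 ± 0.06, the co-chaperone BAG3 by 0.70 ± 0.07 and the exchange factor HSPH1 by 0.41 ± 0.05, whereas CHORDC1 fell by 0.75 ± 0.06. The inducible chaperone HSPA1A did not pass the test, at 20.3 and 19.7 CPM in 3% PEG against 20.2 and 18.9 CPM uncompressed and 0.03 ± 0.09, and shares reads with its near-identical copy HSPA1B. In the endoplasmic reticulum 10 of 15 chaperones fell and 5 rose, with a median of -0.39. The disulfide isomerase PDIA4 stood at 217 and 218 CPM in 3% PEG against 385 and 381 CPM uncompressed and fell by 0.81 ± 0.05, while HSPA5, the chaperone BiP, rose by 0.26 ± 0.04. The sensors and degradation genes went the other way, with 8 of 9 higher and a median of 0.78. ERN1, the sensor IRE1, stood at 76.3 and 81.1 CPM in 3% PEG against 24.9 and 25.8 CPM uncompressed and rose by 1.63 ± 0.07. The sensor ATF6 rose by 1.20 ± 0.05 and HERPUD1, a component of ER-associated degradation, by 1.59 ± 0.06. The autophagy genes of the same survey rose in 10 of 11 cases, with SQSTM1, a cargo receptor, at 384 and 385 CPM in 3% PEG against 168 and 166 CPM uncompressed (1.20 ± 0.05), MAP1LC3B at 178 and 178 CPM in 3% PEG against 84.4 and 84.7 CPM uncompressed (1.08 ± 0.05) and the kinase ULK1 at 1.34 ± 0.07. Lysosomal genes were divided, with 7 of 21 higher and 11 lower, among them the protease CTSD, lower by 0.95 ± 0.06.

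**Figure D2:**
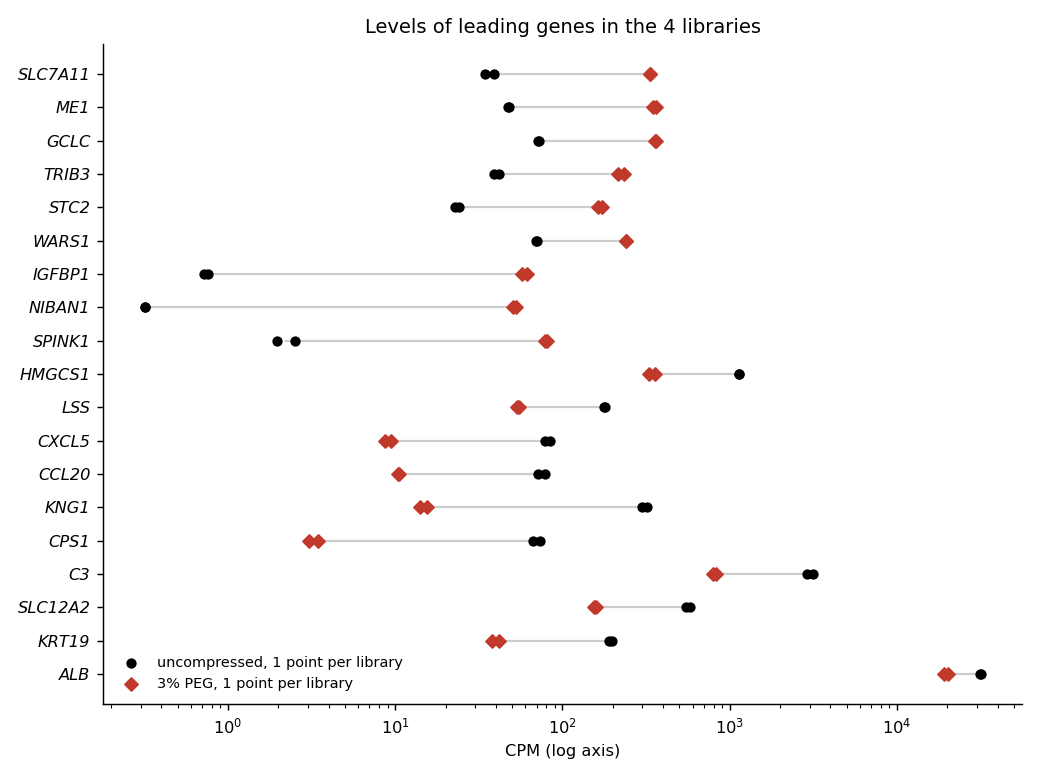
CPM of 19 genes in each of the 4 libraries, on a log axis, with uncompressed libraries as black circles and 3% PEG libraries as red diamonds. Within each gene the libraries of a group sit close together, and the groups are apart for all 19, from NIBAN1, higher in 3% PEG, to ALB, lower. The genes were picked from called changes, so their separation follows in part from that choice. Of all genes tested 81.7% did not overlap between the groups.

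Sterol synthesis fell as a whole. Of 30 tested genes of cholesterol synthesis and sterol sensing 28 fell, 12 by at least 1, with a median of -0.91. Over the 4 libraries no member was called higher by edgeR, at an unadjusted p under 0.05 or by DESeq2, where the count was also 0. All 20 tested enzymes fell. HMGCS1, the synthase at the entry of the pathway, stood at 359.8 and 327 CPM in 3% PEG against 1132 and 1135 CPM uncompressed and fell by 1.72 ± 0.05. LSS, which closes the sterol rings, stood at 54.9 and 53.2 CPM in 3% PEG against 178 and 180.3 CPM uncompressed and fell by 1.73 ± 0.05. In both genes the 3% PEG libraries lay far below the uncompressed ones. NSDHL fell by 1.57 ± 0.07 and ACAT2 by 1.20 ± 0.05. The SREBP motif TCACNCCAC, searched on both strands, stood in 1 of 21 windows of the genes that fell and in 1.12% of all windows.

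Fatty acid synthesis followed, with 9 of 12 genes lower and 2 higher. SCD, the desaturase of stearate, stood at 1511 and 1453 CPM in 3% PEG against 3382 and 3508 CPM uncompressed and fell by 1.22 ± 0.04. ACLY, which supplies cytosolic acetyl-CoA, stood at 356 and 369 CPM in 3% PEG against 735 and 752 CPM uncompressed and fell by 1.04 ± 0.05. FASN, fatty acid synthase, stood at 281 and 327 CPM in 3% PEG against 692 and 759 CPM uncompressed and fell by 1.25 ± 0.07. The members that rose were ME1, given above, and ACACB, by 0.95 ± 0.14. ACSL1, which activates fatty acids with coenzyme A, stood at 176 and 179 CPM in 3% PEG against 28.3 and 27.5 CPM uncompressed and rose by 2.67 ± 0.06. The lipid droplet protein PLIN4 rose by 1.41 ± 0.07, while PLIN2 fell by 0.67 ± 0.05. Among genes of fatty acid oxidation and ketone bodies 7 of 22 rose and 9 fell. CPT1A, the carnitine transferase that gates mitochondrial import, stood at 206 and 218 CPM in 3% PEG against 103 and 113 CPM uncompressed (0.97 ± 0.05), and FABP1, which carries fatty acids in the cytosol, at 45.1 and 43.8 CPM in 3% PEG against 109 and 98.6 CPM uncompressed (-1.22 ± 0.06).

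Chemokine genes were among the largest falls. Of 9 tested ligands 7 fell, all by at least 1, and 1 rose, with a median of -2.83. CXCL2 and CXCL3, both lower, passed the filter through the uncompressed group alone, and of the other 7 ligands 5 fell. CXCL1, a neutrophil attractant, stood at 0.704 and 1.36 CPM in 3% PEG against 25.6 and 23.2 CPM uncompressed and fell by 4.53 ± 0.17. CXCL5 stood at 9.48 and 8.71 CPM in 3% PEG against 84.0 and 79.1 CPM uncompressed and fell by 3.17 ± 0.08. CXCL8, interleukin 8, stood at 13.1 and 11.1 CPM in 3% PEG against 70.7 and 72.1 CPM uncompressed and fell by 2.56 ± 0.08. For these 3 genes both 3% PEG libraries lay far below both uncompressed ones. CCL20, which attracts cells bearing CCR6, stood at 10.4 and 10.5 CPM in 3% PEG against 78.1 and 71.2 CPM uncompressed and fell by 2.83 ± 0.08. The ligand that rose was CSF1, by 0.66 ± 0.14, and IL32 did not pass the test (0.07 ± 0.08). Of 10 genes of NF-kB feedback 6 fell and 4 did not pass the test. NFKBIA, the inhibitor that NF-kB induces, stood at 34.8 and 34.3 CPM in 3% PEG against 83.6 and 85.3 CPM uncompressed and fell by 1.29 ± 0.06. The interferon genes did not share this direction: 13 of 22 genes of interferon response and antigen presentation rose and 2 fell. IFIT3, higher, passed the filter through 3% PEG alone, and of the other 21 genes 12 rose and 2 fell. Without replicate 2 of 3% PEG 8 of the 20 genes then tested rose, with a median of 0.26. IRF1 stood at 21.9 and 22.8 CPM in 3% PEG against 6.44 and 5.7 CPM uncompressed and rose by 1.88 ± 0.11, and IFIT2 rose by 2.18 ± 0.25 from a low level.

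The NF-kB motif, GGG, any pair of bases and then TTTCC, on either strand, stood in the windows of 9 of the 12 chemokine and feedback genes that fell and had one (CXCL1, CXCL2, CXCL3, CXCL5, CCL20, NFKBIA, NFKBIZ, TNFAIP3 and NFKB1), against 2.22% of all windows. The fall of NFKB1 itself was small and was not called without replicate 2 of 3% PEG (-0.14). The list was drawn up around chemokines and NF-kB feedback, so an excess of this motif follows in part from that choice. Members that did not fall were not counted separately. The 250 bases before the start site of 4 of them that fell are shown in the same way, since most members of the list fell (13 of 19). CXCL1 lies on the plus strand at chr4:73869143-73869392 with its match starting 79 bases before the start site. CXCL5 lies on the minus strand at chr4:73998678-73998927 with its match at 91 bases. CCL20 lies on the plus strand at chr2:227813592-227813841 with its match at 79 bases, and NFKBIA on the minus strand at chr14:35404750-35404999 with its match at 81 bases.
CXCL1: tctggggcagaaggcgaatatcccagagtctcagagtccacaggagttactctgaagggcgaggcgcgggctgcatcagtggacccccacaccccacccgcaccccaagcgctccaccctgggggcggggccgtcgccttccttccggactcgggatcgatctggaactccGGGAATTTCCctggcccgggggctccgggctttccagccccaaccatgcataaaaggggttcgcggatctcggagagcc
CXCL5: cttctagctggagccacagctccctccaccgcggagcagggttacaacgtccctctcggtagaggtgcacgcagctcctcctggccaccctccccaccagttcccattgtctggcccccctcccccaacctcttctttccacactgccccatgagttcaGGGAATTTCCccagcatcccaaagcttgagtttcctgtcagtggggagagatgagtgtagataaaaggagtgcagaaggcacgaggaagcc
CCL20: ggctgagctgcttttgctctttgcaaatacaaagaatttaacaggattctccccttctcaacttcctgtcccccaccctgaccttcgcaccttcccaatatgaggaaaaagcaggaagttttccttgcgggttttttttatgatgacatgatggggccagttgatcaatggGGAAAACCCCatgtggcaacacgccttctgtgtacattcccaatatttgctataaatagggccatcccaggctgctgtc
NFKBIA: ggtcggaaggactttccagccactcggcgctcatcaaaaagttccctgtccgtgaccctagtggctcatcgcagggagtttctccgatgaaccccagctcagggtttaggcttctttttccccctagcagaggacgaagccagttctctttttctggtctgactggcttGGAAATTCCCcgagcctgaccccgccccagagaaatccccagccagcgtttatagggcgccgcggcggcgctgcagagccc

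The mRNAs of proteins that the liver secretes fell for the most part. Of 21 tested serum proteins and apolipoproteins 16 fell, 7 by at least 1, and 4 rose, with a median of -0.68. DESeq2 called 2 members higher, as did edgeR without replicate 2 of 3% PEG or without replicate 1 of the uncompressed group, and 1 rose without replicate 2 of that group. ALB, albumin, stood at 20209 and 19187 CPM in 3% PEG against 31634 and 31287 CPM uncompressed and fell by 0.68 ± 0.03. AFP, alpha-fetoprotein, a marker of fetal liver and liver tumours, stood at 259 and 229 CPM in 3% PEG against 729 and 724 CPM uncompressed and fell by 1.57 ± 0.05. GC, the vitamin D carrier, stood at 913 and 868 CPM in 3% PEG against 3098 and 3204 CPM uncompressed and fell by 1.82 ± 0.04. The groups did not overlap in any of these 3. APOA1, of high density lipoprotein, fell by 1.63 ± 0.05, and SERPINA6, which carries cortisol, by 1.69 ± 0.06. AMBP, a precursor of a protease inhibitor, stood at 1514 and 1557 CPM in 3% PEG against 947 and 932 CPM uncompressed and rose by 0.71 ± 0.04.

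Complement and coagulation genes fell in 13 of 19 cases, 7 by at least 1, and rose in 3. SERPINC1, higher, passed the filter through 3% PEG alone, and of the other 18 genes 13 fell and 2 rose. KNG1, the kininogen precursor of bradykinin, stood at 14.04 and 15.4 CPM in 3% PEG against 299 and 321 CPM uncompressed and fell by 4.39 ± 0.07 (adjusted p = 1.78e-29, edgeR). C3, the central complement component, stood at 791 and 824 CPM in 3% PEG against 2902 and 3138 CPM uncompressed and fell by 1.90 ± 0.05. C4BPA fell by 2.69 ± 0.09 and CFI by 1.56 ± 0.05, both inhibitors of complement, and C6, of the membrane attack complex, stood at 4.65 and 4.11 CPM in 3% PEG against 80.8 and 81.7 CPM uncompressed and fell by 4.22 ± 0.09. The acute phase genes split, with 6 of 10 higher and 4 lower. Of these, 1 passed the filter through 3% PEG alone and 2 through the uncompressed group alone, and of the other 7 genes 5 rose and 2 fell. The fibrinogen chains rose, FGA from 359 and 368 CPM to 866 and 833 CPM (1.22 ± 0.05), FGG by 0.67 ± 0.05 and FGB by 0.27 ± 0.05, and ORM1, orosomucoid, rose by 1.12 ± 0.06. CP, the copper carrier ceruloplasmin, stood at 13.1 and 12.1 CPM in 3% PEG against 175 and 183 CPM uncompressed and fell by 3.83 ± 0.07.

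Metabolic genes of the hepatocyte were mixed, with 11 of 23 higher and 8 lower. UGT1A1, higher, passed the filter through 3% PEG alone, and of the other 22 genes 10 rose and 8 fell. CPS1, the first enzyme of the urea cycle, stood at 3.47 and 3.04 CPM in 3% PEG against 66.4 and 73.5 CPM uncompressed and fell by 4.43 ± 0.10, whereas ASS1, a later enzyme of the cycle, stood at 174 and 169 CPM in 3% PEG against 91.5 and 94.1 CPM uncompressed and rose by 0.89 ± 0.05. CYP1A1, a monooxygenase induced through the aryl hydrocarbon receptor, stood at 86.5 and 92.0 CPM in 3% PEG against 16.9 and 17.6 CPM uncompressed and rose by 2.37 ± 0.07. Among 18 liver transcription factors 7 rose and 9 fell. HNF4A, a master regulator of hepatocytes, rose by 0.51 ± 0.05, CEBPB rose by 2.20 ± 0.09 and the bile acid receptor NR1H4 fell by 1.49 ± 0.08.

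**Figure D3:**
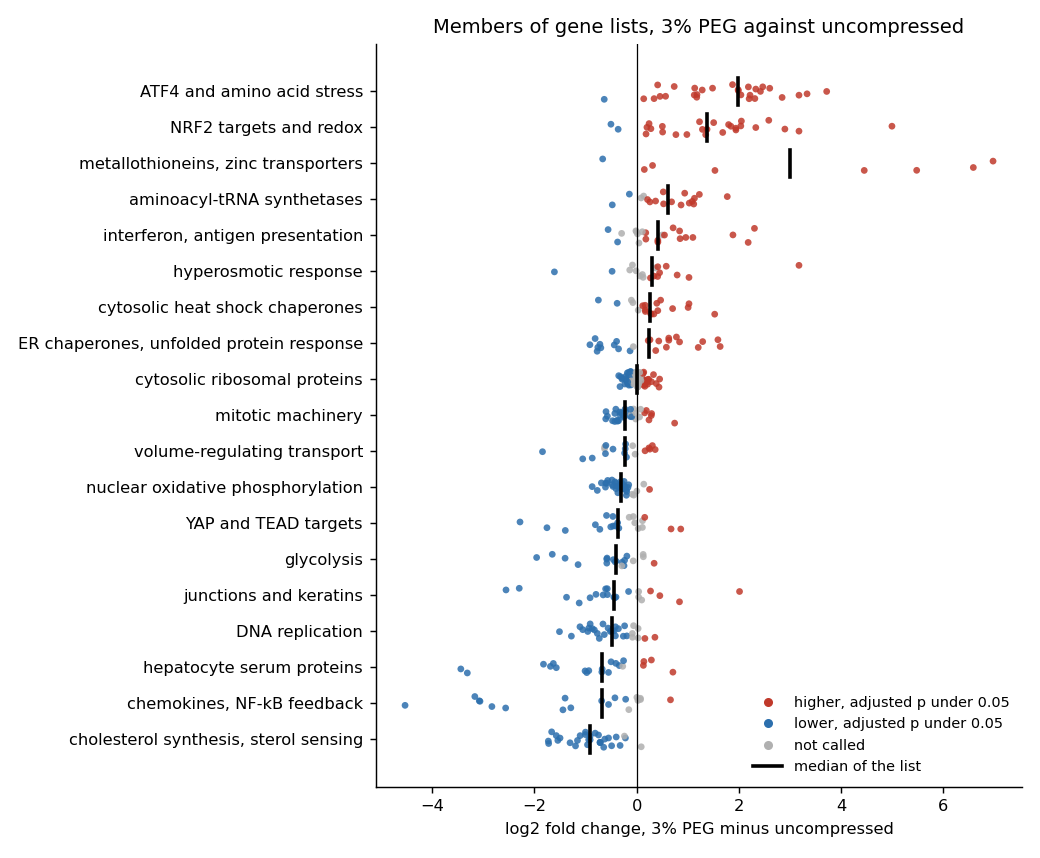
Each point is a tested member of 1 of 19 gene lists, placed by its log2 fold change of 3% PEG minus uncompressed and coloured by the edgeR call, with the list's median as a black bar. The ATF4 and NRF2 lists lie almost wholly above 0 (28 of 29 and 25 of 27 members higher) and the cholesterol list below it (28 of 30 lower), while ribosomal proteins straddle 0 (18 of 72 higher, 20 lower).

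Genes known for the answer to hyperosmolarity were mixed. Of 18 tested 9 rose, 2 by at least 1, and 2 fell. NFAT5, the tonicity factor, stood at 134 and 146 CPM in 3% PEG against 95.4 and 110.1 CPM uncompressed and rose by 0.45 ± 0.06. SLC5A3, the inositol importer, stood at 65.6 and 72.1 CPM in 3% PEG against 70.5 and 75.6 CPM uncompressed and did not pass the test (-0.08 ± 0.06). The taurine transporter SLC6A6 fell by 0.48 ± 0.06, and SLC6A12, the betaine transporter, stood at 11.1 and 12.8 CPM in 3% PEG against 7.0 and 9.05 CPM uncompressed and rose by 0.58 ± 0.13. The water and glycerol channel AQP3 stood at 26.2 and 28.95 CPM in 3% PEG against 25.6 and 27.1 CPM uncompressed and did not pass the test (0.07 ± 0.08). The list's largest rise is SLC7A11, which the ATF4 and NRF2 lists also hold. SGK1, a kinase of salt and volume control, stood at 45.9 and 50.5 CPM in 3% PEG against 145 and 150.0 CPM uncompressed and fell by 1.61 ± 0.06. WNK1, the kinase that senses chloride and crowding, stood at 1170 and 1269 CPM in 3% PEG against 644 and 765 CPM uncompressed and rose by 0.79 ± 0.09.

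Of 19 channels and cotransporters of cell volume 10 fell and 5 rose. DESeq2 called 3 higher, and 3 rose and 12 fell without replicate 1 of the uncompressed group. SLC12A2, the sodium, potassium and chloride importer NKCC1 that drives volume recovery after shrinkage, stood at 159 and 154 CPM in 3% PEG against 549 and 575 CPM uncompressed and fell by 1.84 ± 0.05. SLC12A4, a potassium and chloride exporter, stood at 9.81 and 11.3 CPM in 3% PEG against 21.4 and 22.6 CPM uncompressed and fell by 1.06 ± 0.10. The beta subunit ATP1B1 of the sodium pump stood at 449 and 439 CPM in 3% PEG against 670.4 and 685 CPM uncompressed and fell by 0.61 ± 0.05. PIEZO1, the stretch-gated channel, stood at 46.8 and 49.1 CPM in 3% PEG against 72.8 and 73.0 CPM uncompressed and fell by 0.60 ± 0.06. In these 4 genes both 3% PEG libraries lay below both uncompressed ones.

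DNA replication genes fell in 25 of 32 cases, 4 by at least 1, and rose in 2, with a median of -0.49. UHRF1, which brings maintenance methylation to replicated DNA, stood at 34.7 and 36.5 CPM in 3% PEG against 104 and 99.5 CPM uncompressed and fell by 1.51 ± 0.06. Subunits of the replicative helicase fell together, MCM5 by 1.11 ± 0.06, MCM2 by 1.06 ± 0.05 and MCM3 by 0.91 ± 0.05. Mitotic genes moved less: 20 of 32 fell, none of them by 1 or more, and 6 rose, with a median of -0.22. Without replicate 1 of the uncompressed group 3 rose. CDK1, the kinase of mitotic entry, stood at 119 and 114 CPM in 3% PEG against 158 and 154 CPM uncompressed and fell by 0.43 ± 0.05, while the centrosome kinase NEK2 stood at 178 and 174 CPM in 3% PEG against 104 and 106 CPM uncompressed and rose by 0.74 ± 0.05. The proliferation marker MKI67 stood at 350.1 and 393 CPM in 3% PEG against 323 and 429 CPM uncompressed and did not pass the test. Its uncompressed libraries lay on both sides of 3% PEG, so MKI67 was called lower without replicate 1 of that group (-0.22) and higher without replicate 2 (0.19). CDKN1A, the CDK inhibitor p21, stood at 13.7 and 15.6 CPM in 3% PEG against 0.999 and 1.2 CPM uncompressed and rose by 3.73 ± 0.18. CDKN1C, the inhibitor p57, stood at 50.8 and 51.7 CPM in 3% PEG against 163 and 171 CPM uncompressed and fell by 1.70 ± 0.06, and CCND1, cyclin D1, stood at 25.7 and 25.1 CPM in 3% PEG against 80.4 and 85.3 CPM uncompressed and fell by 1.70 ± 0.07. The CHR motif TTTGAA stood in 14 of 18 windows of mitotic genes that fell, against 9.60% of all windows. The E2F motif TTTCCCGC stood in 8 of 22 windows of replication genes that fell, against 2.59%, and TTTGGCGC in 6 of 22, against 1.12%, each on either strand. The lists were drawn up around mitosis and replication, so an excess of these motifs may follow in part from that choice. Members that did not fall were not counted separately.

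Ribosome and energy genes changed by small amounts. Of 72 cytosolic ribosomal protein genes 18 rose and 20 fell, with a median of 0.01, and 14 of 24 genes of ribosome assembly rose and 2 fell. The balance of the ribosomal protein genes moved with the setting, with 25 higher and 11 lower scaled by total counts, 11 and 19 with no filter on low counts, 15 and 13 without replicate 1 of 3% PEG, and 11 and 16 or 11 and 18 without replicate 1 or 2 of the uncompressed group. Of 33 nuclear genes of oxidative phosphorylation 28 fell, none by 1 or more, and 1 rose, with a median of -0.31. SDHA, a subunit of complex II, stood at 86.6 and 91.8 CPM in 3% PEG against 153 and 152 CPM uncompressed and fell by 0.77 ± 0.05. None of the 13 tested mitochondrially encoded genes was called by edgeR, at an unadjusted p under 0.05 or by DESeq2, where the counts were also 0, and their replicates differed with the mitochondrial share given above. The list's median was -0.73 without replicate 1 of 3% PEG, where 1 gene was called lower, and 0.38 without replicate 2, where 1 was called higher, and a dispersion without robust estimation called 1 lower.

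Genes of the IGF axis and growth receptors were split, with 10 of 22 higher and 10 lower, and held some of the largest changes. IGFBP1 passed the filter through 3% PEG alone and IGFALS through the uncompressed group alone. Of the other 20 genes 9 rose and 9 fell. IGFBP1, a secreted binding protein of IGFs that liver cells make under nutrient stress, stood at 57.5 and 60.9 CPM in 3% PEG against 0.72 and 0.757 CPM uncompressed and rose by 6.32 ± 0.13. IGF2, the fetal growth factor, stood at 1883 and 1988 CPM in 3% PEG against 7687 and 8817 CPM uncompressed and fell by 2.09 ± 0.07. The ligands of the EGF receptor rose, EREG from 38.1 and 40.9 CPM to 244 and 229 CPM (2.58 ± 0.06) and AREG by 1.41 ± 0.07, while EGFR itself did not pass the test (-0.01 ± 0.07). FGFR4 and its co-receptor KLB, which together receive the bile acid hormone FGF19, fell by 1.03 ± 0.05 and 1.46 ± 0.05. Tumour progenitor markers fell in 10 of 11 cases, 5 by at least 1, with a median of -0.94. CD24 stood at 411 and 403 CPM in 3% PEG against 1407 and 1495 CPM uncompressed and fell by 1.83 ± 0.05. SOX9 stood at 81.8 and 84.1 CPM in 3% PEG against 189 and 195 CPM uncompressed and fell by 1.21 ± 0.05, and SOX4 at 289 and 293 CPM in 3% PEG against 613 and 611 CPM uncompressed and fell by 1.07 ± 0.05.

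Epithelial genes fell in 14 of 21 cases, 4 by at least 1, and rose in 4. KRT19, a keratin of bile duct cells and liver progenitors, stood at 41.5 and 37.8 CPM in 3% PEG against 199 and 190.2 CPM uncompressed and fell by 2.30 ± 0.06. KRT23 stood at 26.2 and 25.5 CPM in 3% PEG against 152 and 152 CPM uncompressed and fell by 2.56 ± 0.06. CLDN1, a tight junction claudin, stood at 908 and 879 CPM in 3% PEG against 1901 and 1995 CPM uncompressed and fell by 1.12 ± 0.04, while the desmosomal cadherin DSG2 stood at 360.1 and 351 CPM in 3% PEG against 196 and 202 CPM uncompressed and rose by 0.84 ± 0.05. Of 21 YAP and TEAD genes 12 fell and 3 rose. CCN2, a secreted target of YAP, stood at 19.7 and 21.4 CPM in 3% PEG against 69.0 and 70.0 CPM uncompressed and fell by 1.76 ± 0.07, and TGFB2 stood at 2.54 and 2.3 CPM in 3% PEG against 11.4 and 12.1 CPM uncompressed and fell by 2.28 ± 0.16. Of 28 genes of TGF-beta signalling and mesenchymal state 12 rose and 7 fell. LOXL2, higher, passed the filter through 3% PEG alone, and of the other 27 genes 11 rose and 7 fell. FN1, fibronectin, stood at 2619 and 2915 CPM in 3% PEG against 2120 and 2547 CPM uncompressed and did not pass the test (0.25 ± 0.14), but was called higher without replicate 2 of the uncompressed group (0.37), with no filter on low counts (0.23), with a dispersion estimated without robust weights (0.25) and over the 6 Hep3B libraries (0.26). Among proteases and inhibitors SERPINE2 stood at 72.8 and 78.9 CPM in 3% PEG against 19.3 and 19.8 CPM uncompressed and rose by 1.96 ± 0.07, TIMP2 stood at 25.4 and 30.3 CPM in 3% PEG against 93.7 and 95.8 CPM uncompressed and fell by 1.76 ± 0.07, and the metalloprotease MMP11 fell by 1.47 ± 0.10. The matrix gene COL18A1 stood at 83.3 and 92.4 CPM in 3% PEG against 286 and 279 CPM uncompressed and fell by 1.68 ± 0.05, whereas the integrin chains ITGAV and ITGA6 rose by 0.89 ± 0.05 and 0.87 ± 0.05. ANXA4, a calcium-dependent membrane binder, stood at 143 and 138 CPM in 3% PEG against 487 and 482 CPM uncompressed and fell by 1.78 ± 0.05, while S100A11 stood at 26.1 and 28.2 CPM in 3% PEG against 4.24 and 3.75 CPM uncompressed and rose by 2.77 ± 0.11. TMSB4X, which holds actin monomers, stood at 56.1 and 54.6 CPM in 3% PEG against 275 and 271 CPM uncompressed and fell by 2.30 ± 0.05.

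The actin cytoskeleton was divided, with 12 of 37 tested genes higher and 20 lower, mostly by small amounts. ACTB, cytoplasmic beta-actin, stood at 3310 and 3590 CPM in 3% PEG against 4815 and 5040 CPM uncompressed and fell by 0.51 ± 0.04. MYL9, a regulatory light chain of contractile myosin, stood at 17.4 and 19.2 CPM in 3% PEG against 42.4 and 41.9 CPM uncompressed and fell by 1.20 ± 0.08, and the adhesion protein VCL fell by 0.79 ± 0.05. Moesin, which ties actin to the membrane, went the other way: MSN stood at 151 and 149 CPM in 3% PEG against 64.6 and 62.7 CPM uncompressed and rose by 1.23 ± 0.05. The kinase ROCK2, which drives contraction, rose by 0.75 ± 0.05. The laminin chain LAMA5 stood at 51.9 and 63.9 CPM in 3% PEG against 141 and 158 CPM uncompressed and fell by 1.36 ± 0.11.

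Immediate early genes and their MAPK feedback rose in 14 of 29 cases, 7 by at least 1, and fell in 10, 4 by at least 1. Of these, 2 passed the filter through 3% PEG alone and 1 through the uncompressed group alone, and of the other 26 genes 12 rose and 9 fell. EGR1, an early growth response factor, stood at 30.9 and 32.3 CPM in 3% PEG against 11.6 and 11.5 CPM uncompressed and rose by 1.45 ± 0.09. ZFP36, which destabilises inflammatory mRNAs, stood at 27.7 and 28.7 CPM in 3% PEG against 9.91 and 9.89 CPM uncompressed and rose by 1.51 ± 0.09. KLF4, a factor of epithelial differentiation, stood at 6.95 and 5.83 CPM in 3% PEG against 0.16 and 0.0399 CPM uncompressed, all on few reads. JUN did not pass the test, at 63.7 and 70.2 CPM in 3% PEG against 68.2 and 66.1 CPM uncompressed. The feedback phosphatase DUSP6, a readout of ERK signalling, stood at 9.53 and 10.5 CPM in 3% PEG against 21.2 and 20.6 CPM uncompressed and fell by 1.06 ± 0.10, and PHLDA1 stood at 52.3 and 49.2 CPM in 3% PEG against 131 and 135 CPM uncompressed and fell by 1.39 ± 0.06. Of 29 calcium signalling genes 11 rose and 11 fell. ITPR1, a calcium release channel of the endoplasmic reticulum, stood at 39.2 and 41.4 CPM in 3% PEG against 14.6 and 18.7 CPM uncompressed and rose by 1.28 ± 0.09, while CAPN1 and CAPN2, calcium-dependent proteases, moved apart, CAPN1 lower by 0.70 ± 0.06 and CAPN2 higher by 0.86 ± 0.05.

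Genes that promote and oppose cell death moved in both directions. Of 27 pro-apoptotic genes 11 rose, 4 by at least 1, and 9 fell, with a median of 0.06. BIK, lower, passed the filter through the uncompressed group alone, and of the other 26 genes 11 rose and 8 fell. TNFRSF10B, the TRAIL receptor DR5 that CHOP induces, stood at 172 and 178 CPM in 3% PEG against 64.4 and 64.7 CPM uncompressed and rose by 1.44 ± 0.05. CASP8, the caspase that death receptors start, stood at 81.2 and 83.2 CPM in 3% PEG against 46.2 and 45.6 CPM uncompressed and rose by 0.84 ± 0.06. Of 15 anti-apoptotic genes 7 rose and 3 fell. XIAP, an inhibitor of caspases, stood at 112 and 109 CPM in 3% PEG against 62.6 and 66.4 CPM uncompressed and rose by 0.78 ± 0.06, and the decoy receptor TNFRSF10D rose by 0.87 ± 0.07. BCL2L1, which encodes BCL-XL, stood at 112 and 115 CPM in 3% PEG against 132 and 137 CPM uncompressed and fell by 0.24 ± 0.05.

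The largest changes by the rule for named genes included several outside the lists. NIBAN1, a stress-induced regulator of translation, stood at 50.4 and 52.9 CPM in 3% PEG against 0.32 and 0.319 CPM uncompressed and rose by 7.31 ± 0.15. SPINK1, a trypsin inhibitor, stood at 80.4 and 79.0 CPM in 3% PEG against 1.96 and 2.51 CPM uncompressed and rose by 5.15 ± 0.10. LAMP3, a lysosomal membrane protein, stood at 69.1 and 61.6 CPM in 3% PEG against 3.96 and 3.35 CPM uncompressed and rose by 4.16 ± 0.10. The netrin receptor UNC5B had 849 counts in 3% PEG against 3 uncompressed, a ratio of 311 with a 95% exact counting interval of 106 to 1509, which covers counting error only. The long non-coding RNA DRAIC stood at 28.2 and 28.3 CPM in 3% PEG against 0.36 and 0.438 CPM uncompressed and rose by 6.13 ± 0.17. RUNX1, a transcription factor, rose by 5.10 ± 0.26 and MAP1B, a microtubule-associated protein, by 4.97 ± 0.12. On the other side SLC29A4, a monoamine transporter, stood at 15.5 and 17.3 CPM in 3% PEG against 219.6 and 231 CPM uncompressed and fell by 3.77 ± 0.06. ATP2B2, a calcium pump of the plasma membrane, stood at 3.38 and 3.57 CPM in 3% PEG against 61.3 and 65.7 CPM uncompressed and fell by 4.19 ± 0.10. DKK1, an inhibitor of Wnt signalling, stood at 157 and 163 CPM in 3% PEG against 714 and 715 CPM uncompressed and fell by 2.16 ± 0.05. CHODL, a membrane lectin, stood at 1.78 and 2.3 CPM in 3% PEG against 22.9 and 24.6 CPM uncompressed and fell by 3.52 ± 0.14. The rule took only genes whose groups did not overlap, so the absence of overlap in these genes follows from it.

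With the spread estimated over all 14 libraries, HepG2 included, edgeR called 2139 genes higher and 2195 lower, and a count of calls moved by over 1.5 times in 35 of the 40 lists. Of the 4685 rises and 4685 falls given above over all genes, 2013 and 2125 were called again. The list counts below are to be read against these, since the share of all genes called in this fit is not given here. The ATF4 list had 24 rises, the NRF2 list 19, the synthetases 12 and the chemokine ligands 7 falls, and 21 cholesterol genes fell. Lists of small changes lost most calls: 1 mitotic gene rose and 2 fell, 1 ribosomal protein gene moved each way, and 3 volume channels fell while none rose. Of the replication genes 19 fell, of the serum proteins 11, of the nuclear genes of oxidative phosphorylation 13, and of the glycolysis genes 6. Heat shock chaperones rose in 5 cases, interferon and antigen presentation genes in 6, ribosome assembly genes in 5 and hyperosmolarity genes in 4. Of the genes named 23 were no longer called: BCL2L1, CAPN1, CDK1, CSF1, CTSD, FASN, FGB, FGF19, FGFR4, HSPA1B, HSPA5, HSPH1, LAMA5, MMP11, NFAT5, NFKB1, PDGFRB, PHGDH, PIEZO1, QARS1, SLC12A4, SLC6A12 and TALDO1.

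The weight gave a different profile from 3% PEG in the same line on the same membranes. Both effects were measured against the same uncompressed libraries, so they are set side by side, and the difference was tested directly between 3% PEG and the weight over the 6 Hep3B libraries. In that test 4459 of 14441 genes (30.9%) were higher in 3% PEG than under the weight and 4639 (32.1%) were lower. In the effect of the weight itself 11% of these genes were called higher than uncompressed and 8.23% lower. Counts, medians and effects given below for 3% PEG against uncompressed are from the fit of 4 libraries. Those for the weight are from the fit of 6. Glycolysis marked the contrast: 14 of 19 genes fell and 1 rose in 3% PEG, with a median of -0.40, whereas 18 rose and 1 fell under the weight, with a median of 1.03, and all 19 were lower in 3% PEG than under the weight. LDHA, lactate dehydrogenase, stood at 407 and 395 CPM in 3% PEG, 1600 and 2069 CPM under the weight and 601 and 595 CPM uncompressed, scaled over the 6 libraries. PKM, pyruvate kinase, fell by 1.15 ± 0.05 in 3% PEG and had an effect of 0.53 under the weight.

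Hypoxia-responsive genes outside glycolysis rose in 8 of 25 cases and fell in 12 in 3% PEG, and rose in 20 under the weight. Over the 6 Hep3B libraries, the fit used for the weight, 8 rose and 8 fell in 3% PEG. HIF3A and CA9, both called lower in 3% PEG over the 4 libraries, passed the filter of these through the uncompressed group alone. Over the 6 libraries CA9 was no longer called lower against uncompressed (-2.20, edgeR adjusted p = 0.085). Of the other 23 genes 8 rose and 10 fell in 3% PEG, with a median of 0.02. Directly compared, 18 were lower in 3% PEG than under the weight and 3 were higher. CA9, the carbonic anhydrase used as a marker of hypoxia, stood at 0.232 and 0.324 CPM in 3% PEG, 28.5 and 45.6 CPM under the weight and 1.42 and 1.21 CPM uncompressed. LOX, lysyl oxidase, stood at 14.5 and 13.4 CPM in 3% PEG, 142 and 188 CPM under the weight and 57.0 and 55.8 CPM uncompressed. In both genes the 3% PEG libraries were the lowest and the weight libraries the highest, and the direct differences were -7.01 ± 0.48 and -3.57 ± 0.17. VEGFA, the vascular growth factor, and DDIT4, an inhibitor of mTOR signalling, rose in both, VEGFA by 0.93 in 3% PEG and 1.59 under the weight, and DDIT4 by 2.18 and 2.41.

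The amino acid and redox lists separated the conditions the other way, and the sterol genes the same way as glycolysis. The median of the ATF4 list was 1.98 in 3% PEG and -0.04 under the weight, and 28 of 29 members were higher in 3% PEG than under the weight. The NRF2 list had a median of 1.38 in 3% PEG and -0.10 under the weight, and 25 of 27 members were higher in 3% PEG than under the weight. Of the cholesterol genes 19 rose and 1 fell under the weight, and 27 of 30 were lower in 3% PEG than under the weight. HMGCS1 stood at 356 and 322 CPM in 3% PEG, 1393 and 1408 CPM under the weight and 1116 and 1110 CPM uncompressed. CP, with 13.02 and 11.9 CPM in 3% PEG and 602 and 855 CPM under the weight, showed a direct difference of -5.87 ± 0.27. IGFBP1 rose in both, to 56.9 and 60.1 CPM in 3% PEG and 13.7 and 22.6 CPM under the weight. The weight libraries were farther from each other than the 3% PEG libraries in LDHA, CA9, LOX and CP.

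**Figure D4:**
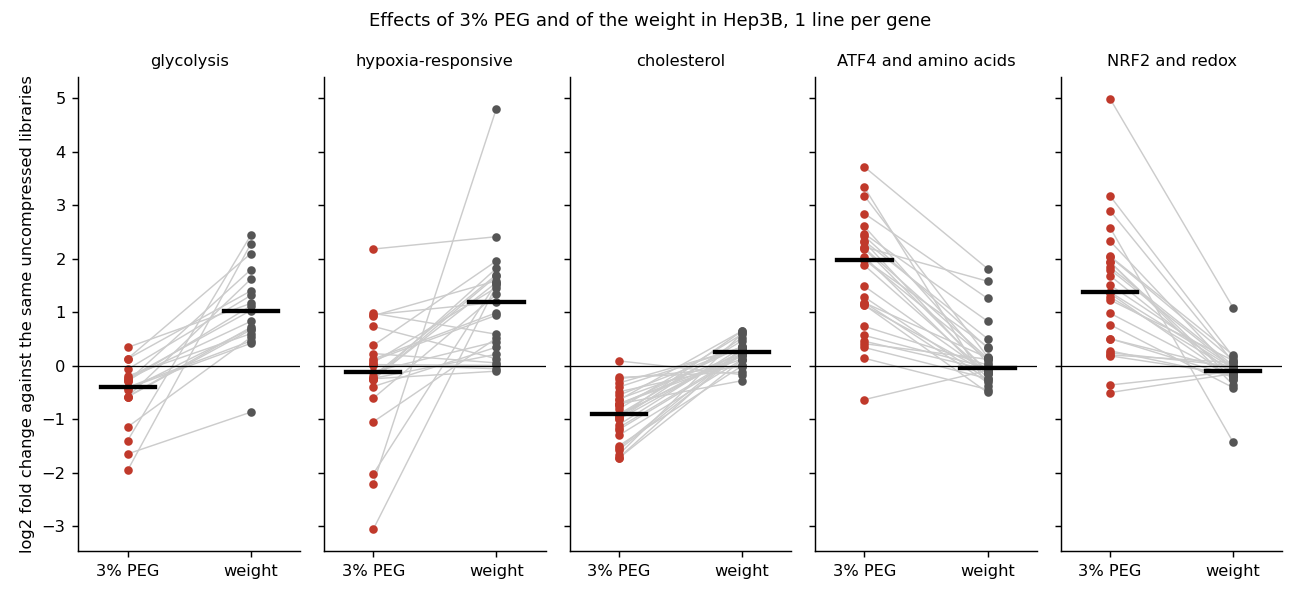
Log2 fold changes against the same 2 uncompressed libraries for 3% PEG (red) and the weight (grey) in Hep3B, 1 line per gene and black bars for medians, in 5 lists. Glycolysis and hypoxia-responsive genes are higher under the weight (medians 1.03 and 1.18) than in 3% PEG (-0.40 and -0.11), and the ATF4 and NRF2 lists the reverse.

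The HepG2 groups on dishes share no library with the Hep3B groups. The HepG2 effect and its calls come from a fit over the 8 libraries of both lines, with the spread estimated together. Line, surface, PEG concentration and perhaps time differ together and cannot be told apart. Of the 14146 genes tested in Hep3B, 9370 were called there and 5624 in HepG2 (20% of the genes higher and 19.8% lower), and 4004 were called in both, which is 42.7% of the Hep3B calls and 71.2% of the HepG2 calls. Of these 3057 (76.3%) had the same direction. Across genes, which are not independent replicates, Spearman's rho between both sets of log2 fold changes was 0.35 and Pearson's r 0.32. A test of the difference between the effects called 17.4% of 15774 genes, both directions together. The HepG2 dish replicates were noisier, with a biological coefficient of variation of 0.312 in isotonic medium and 0.279 in 4% PEG against 0.0527 in 3% PEG and 0.0429 uncompressed in Hep3B.

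Several leading changes had the same direction in both lines. SLC7A11 had 3.17 in Hep3B and 3.01 in HepG2, NIBAN1 7.31 and 7.15, GCLC 2.33 and 2.24, and KNG1 -4.39 and -4.09, and the difference passed the test for none of these 4 genes. The adjusted p of those differences by edgeR ranged from 0.547 to 0.982, which does not show that the effects are alike. The NRF2 list rose in 13 and fell in 2 of its members in HepG2, with a median of 0.80. The ATF4 list rose in 8 and fell in 4 in HepG2, with a median of 0.25, and the difference was called for 12 of its 29 members. The mitotic list differed widely: all 32 genes fell in HepG2, with a median of -5.29, against -0.22 in Hep3B, and the difference was called for 31. CDK1 had -0.43 in Hep3B and -7.75 in HepG2. Ribosomal protein genes fell in 71 of 72 cases in HepG2, with a median of -1.41, and the difference was called for 56. Osmolyte and water channel genes rose in HepG2: SLC5A3 by 1.16, SLC6A6 by 1.96, SLC6A12 by 3.50 and AQP3 by 4.00, against -0.08, -0.48, 0.58 and 0.07 in Hep3B, where SLC6A6 was called lower and SLC6A12 higher. The difference between the lines passed the edgeR test for SLC6A6, SLC6A12 and AQP3 but not for SLC5A3 (adjusted p = 0.097).

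**Figure D5:**
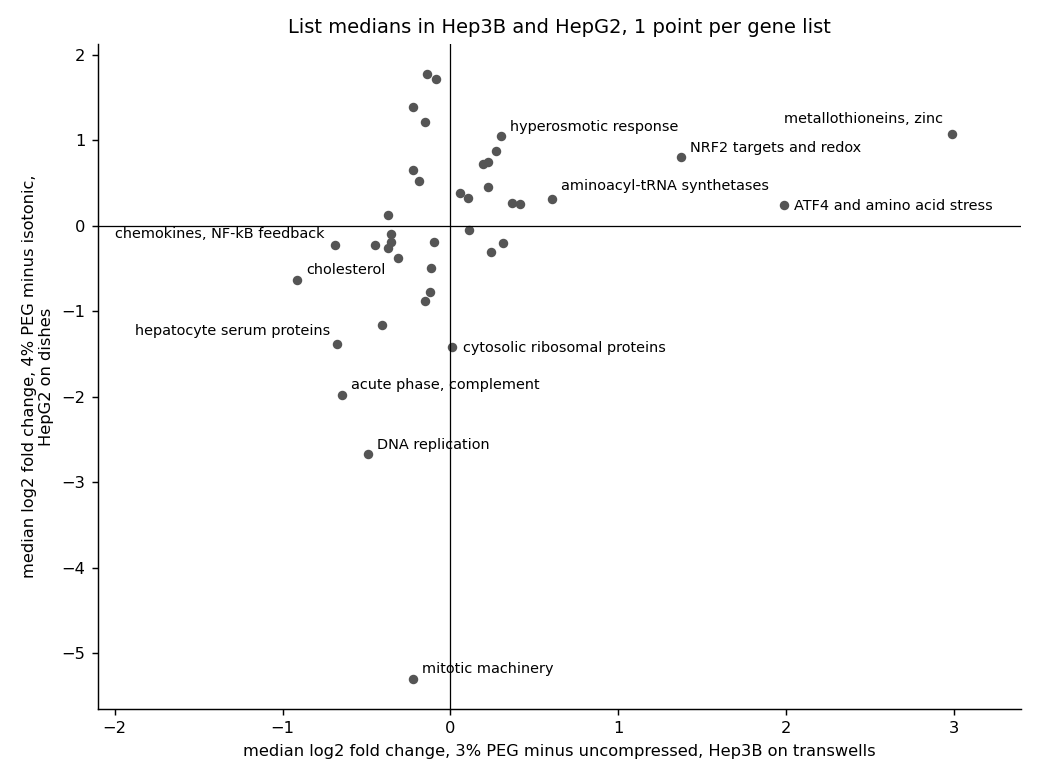
Each point is 1 gene list, placed by its median log2 fold change for 3% PEG in Hep3B on transwells and for 4% PEG in HepG2 on dishes. The NRF2 list lies high on both axes (1.38 and 0.80), whereas the mitotic list lies far lower on the HepG2 axis (-5.29) than on the Hep3B axis (-0.22).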

How the data were processed

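RNA of 14 libraries of Hep3B and HepG2 was sequenced in paired reads, and the authors deposited 1 table of raw counts per gene with Ensembl IDs and gene names. STAR, DESeq2 and the GRCh38 build appear in the submitters' processing notes. How strand was handled and reads were counted is not stated in the sources at hand. Columns named Control were taken as the uncompressed Hep3B libraries, the only group without another column. Entries with an Ensembl ID but no gene name held 0.242% to 0.283% of the counts of the 4 libraries and stayed in, 586 of them tested. Of 14146 genes with at least 1 CPM in 2 of the 4 libraries, differences were tested by edgeR 4.0.16 in R 4.3.3 (TMM scaling, robust quasi-likelihood fit, Benjamini-Hochberg adjustment, threshold 0.05), checked on simulated data. The weight was compared over 6 Hep3B libraries and the line difference over 8. DESeq2 1.42.0, other scalings and filters, a replicate block, other sets of libraries and leaving out 1 library were alternatives. Replicates of a group differed by more than sampling noise (chi-square per degree of freedom 13.7 in 3% PEG and 6.88 uncompressed). Counting intervals are exact and cover counting error only.

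The comparison and the 40 gene lists were chosen with earlier results of these data known. Genes were named by a rule. It took the 15 largest rises and falls and the 10 smallest p in each direction. These came from called genes of at least 5 CPM on average whose groups did not overlap. It also took up to 4 called members of each list, the 3 most abundant of some lists, RB1, AFP and ALB. Under the same conditions it took the 6 largest differences from the weight in each direction. Names beyond the rule, such as ATF4, ASNS, IGF2 and NFKBIA, were chosen after their values were seen. Symbols of 5 listed genes were not found and are not used here, and some genes the rule takes are not reported here. Promoter windows came from RefSeq on GRCh38.p14 for 10393 of 13559 named genes tested.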

Additional observations from a re-analysis of the deposited data

Results flagged for a closer look

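For the genes below, the Hep3B effect of 3% PEG and the HepG2 effect of 4% PEG were both called by edgeR in opposite directions, and the difference between the effects passed its own test. The values are differences of log2 fold changes, Hep3B minus HepG2, and line, surface, PEG concentration and perhaps time cannot be told apart as their source. Among genes higher in Hep3B and lower in HepG2, the difference was 3.62 for STC2, 2.22 for MTHFD2 and 0.96 for HSPA5, of the stress programmes. It was 3.67 for ORM1, 2.05 for FGA, 2.15 for FGB and 1.64 for AMBP, of the secreted liver proteins. It was 4.81 for NEK2, 3.32 for PDGFRB, 2.49 for VEGFA, 1.60 for CPT1A, 1.47 for WNK1 and 1.36 for TNFRSF10D.

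Among genes lower in Hep3B and higher in HepG2, the difference was -8.93 for CHODL, -6.17 for KRT19, -5.40 for TIMP2 and -4.30 for SOX4. It was -3.08 for TMSB4X, -2.70 for MYL9 and -1.74 for VCL, of the actin cytoskeleton. It was -2.46 for SLC6A6, -1.90 for PHLDA1, -1.69 for BCL2L1, -1.22 for TALDO1 and -4.02 for the histone gene H2AC6. KRT19, for example, had -2.30 in Hep3B and 3.85 in HepG2, and STC2 had 2.85 and -0.80. A test for a library that stands apart needs 4 samples in a group and could not be run.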

How the results depend on the processing

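Against 4685 genes higher and 4685 lower, the counts were 2139 and 2195 when the spread was estimated over all 14 libraries, of which 2013 and 2125 were shared, and 545 and 604 when a change beyond 1 on the log2 scale was tested for. The fewer calls of the last setting follow from its stricter question. The cause of the difference with 14 libraries was not tested. The other settings stayed within 1.5 times of the counts: 3980 and 3841 by DESeq2, 5094 and 4113 scaled by total counts, 3972 and 3994 with a minimum of 5 CPM, and 4043 to 4192 and 3983 to 4088 leaving out 1 library in turn. The replicate numbers are not shown to pair the libraries, since the 2 pairs are too few and the correlation of their deviations was 0.13, and a replicate block gave 4814 and 4843 calls. With the block FN1 was called higher (0.25, edgeR adjusted p = 9.48e-06), and of the mitochondrially encoded genes 1 was called higher and 2 lower. For 3% PEG against the weight the replicate block gave 4483 and 4677 calls. Of the genes named, MKI67, not called, ranged from -0.22 without uncompressed replicate 1 to 0.19 without replicate 2, against -0.02 with both. Medians near 0 changed sign between settings, as that of the hypoxia list did, from -0.11 to 0.02 with a minimum of 5 CPM. Leaving out 1 library leaves its group with 1 sample, which is assumed to vary like the other group. In simulated data with 200 of 14146 genes changed, edgeR recovered 48%, 68%, 78% and 100% of changes of 1.25, 1.5, 2 and 4-fold and called 14 unchanged genes. In the data 66.2% of genes were called, far more than were changed there. These rates therefore need not hold for the comparison itself.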

Other observations

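Histone genes formed a falling group that the lists of the report do not hold, and it was added after its values were seen. Of 70 genes with histone H1, H2A, H2B, H3 or H4 symbols 16 were tested, 14 of them fell, 13 by at least 1, and 1 rose, with a median of -1.97. Of those that fell 5 passed the filter on low values through the uncompressed group alone, and of the other 11 genes 9 fell. H2AC6 stood at 5.87 and 6.12 CPM in 3% PEG against 42.2 and 41.6 CPM uncompressed and fell by 2.80 ± 0.09. H2BC5 stood at 2.21 and 2.51 CPM in 3% PEG against 16.5 and 18.5 CPM uncompressed and fell by 2.89 ± 0.14. The list's median in HepG2 in 4% PEG was 0.22. Most histone mRNAs lack a poly(A) tail, and the RNA selection used for these libraries is not given in the sources used here.

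Further genes with large changes lie outside the lists. SPX, a secreted peptide hormone, stood at 28.4 and 30.1 CPM in 3% PEG against 2.2 and 2.79 CPM uncompressed and rose by 3.55 ± 0.12. KIF21B, a kinesin motor, stood at 45.9 and 53.8 CPM in 3% PEG against 3.76 and 4.9 CPM uncompressed and rose by 3.52 ± 0.11, and SLC25A36, a mitochondrial nucleotide carrier, stood at 368 and 341 CPM in 3% PEG against 59.2 and 62.1 CPM uncompressed and rose by 2.55 ± 0.05. CBLN2, a secreted synaptic organiser, stood at 0.657 and 0.739 CPM in 3% PEG against 19.4 and 19.3 CPM uncompressed and fell by 4.78 ± 0.18. SEMA6B, a semaphorin, stood at 2.25 and 2.51 CPM in 3% PEG against 35.1 and 36.8 CPM uncompressed and fell by 3.91 ± 0.12. Against the weight, SCGN, a calcium sensor, stood at 27.0 and 28.5 CPM in 3% PEG, 0.525 and 0.698 CPM under the weight and 3.63 and 2.14 CPM uncompressed, and HAL, histidine ammonia-lyase, at 5.9 and 6.36, 139 and 164 and 36.4 and 36.3 CPM in the same order.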
